A study of Mus musculus with 6 samples.

Results

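Polyamine metabolism was followed through 10 genes in mouse LT-HSCs, the long-lived stem cells at the root of all blood lineages. The genes were picked by name: Odc1, Amd1, Srm and Sms of synthesis, the antizyme genes Oaz1 and Oaz2 with the antizyme inhibitor gene Azin1, and Sat1, Smox and Paox of catabolism. All 10 had a row among the 47561 rows of the deposited count tables, and all 10 were among the 16022 rows that passed the filter on low counts. They were proposed with the knockout against control results of these libraries known. Their differences between the groups are therefore a description and carry no test of their own.

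Mice labelled Piezo1 KO (knockout) were set against mice labelled control, with genotype WT. Piezo1 encodes an ion channel that opens when the cell membrane is stretched. Each group held 3 libraries of sorted bone marrow LT-HSCs. The labels give no allele, Cre driver, strain, age or sex, nor whether each library is its own mouse, so the p-values rest on a spread between libraries that could be purely technical. In KO replicates 2 and 3 the title names Piezo1 while the genotype entry gives another Piezo number, and the titles were followed here.

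Library totals lay between 59435258 and 64653956 counts. Piezo1 had 4.28, 7.99 and 9.46 CPM in the libraries labelled KO and 17.0, 7.02 and 24.3 CPM in those labelled control, where CPM are counts scaled by the TMM-adjusted library total. Its log2 fold change was -1.15 (SE 0.55, edgeR adjusted p = 0.493). Control replicate 2 had less Piezo1 than 2 of the KO libraries, and every direction given here rests on the labels. The LT-HSC markers Slamf1, Hlf and Mecom were counted in every library, but so were Cd48, Cd34 and Flt3. Cd48 had 12.2 to 55.0 CPM in KO and 17.4 to 32.3 CPM in control libraries. Cd34 had 83.6 to 99.0 CPM in KO and 73.4 to 175 CPM in control libraries. Flt3 had 5.30 to 11.7 CPM in KO and 8.57 to 10.5 CPM in control libraries. The purity of the sorted cells was not tested. Further markers of these cells went both ways. Kit had 293 to 344 CPM in KO and 106 to 226 CPM in control libraries, Ly6a 72.8 to 206 CPM in KO and 284 to 373 CPM in control libraries, and Procr, which overlapped, 4.99 to 26.7 CPM in KO and 22.6 to 67.1 CPM in control libraries. The globin share was 0.741% to 2.43% in KO libraries, against 0.0274% to 0.352% in control libraries. Granulocyte markers summed to 12233 CPM in control replicate 3, against 120 to 1176 CPM in KO libraries and 176 and 224 CPM in the other control libraries. The Y-linked Ddx3y had 55.2 to 128 CPM across the libraries and Xist at most 1.73 CPM, the pattern of male cells in every library. These values are given because Sms and Sat1 are X-linked.

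Polyamines are small, positively charged molecules that bind nucleic acids and are needed for growth and translation. Ornithine decarboxylase (Odc1) makes putrescine, and S-adenosylmethionine decarboxylase (Amd1) makes the aminopropyl donor with which spermidine synthase (Srm) and spermine synthase (Sms) extend it. Antizymes (Oaz1, Oaz2) bind ornithine decarboxylase, send it to the proteasome and restrain polyamine uptake, while the antizyme inhibitor (Azin1), a relative of the decarboxylase without its activity, sequesters them. Spermidine/spermine acetyltransferase (Sat1) and acetylpolyamine oxidase (Paox) return polyamines to smaller forms, and spermine oxidase (Smox) converts spermine to spermidine directly.

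Polyamines act on part of this network through the transcripts themselves, so the sequence elements of the antizymes and of Amd1 are shown here. The antizyme reading frame is broken by a stop codon, which ribosomes pass by shifting frame when polyamines are abundant. The stretches around that stop codon are given with the stop in capitals, from GENCODE M21 transcripts on GRCm38 (mm10). Oaz1 lies at chr10:80828265-80828327 (+ strand), Oaz1-ps, a processed pseudogene, at chr17:17345904-17345966 (- strand), and Oaz2 at chr9:65686242-65686304 (+ strand). The Oaz1 and Oaz2 stretches are exonic and coding.
Oaz1: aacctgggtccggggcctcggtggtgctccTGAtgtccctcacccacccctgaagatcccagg
Oaz1-ps: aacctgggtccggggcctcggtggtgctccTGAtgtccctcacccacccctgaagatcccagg
Oaz2: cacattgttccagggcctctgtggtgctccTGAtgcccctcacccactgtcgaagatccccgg
Over these 63 bases Oaz1 and Oaz1-ps differed at 0 positions and Oaz1 and Oaz2 at 12.

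The leader of Amd1 holds a short upstream open reading frame through which polyamines are known to restrain translation of the enzyme. It lies in exon 1 at chr10:40302155-40302175 (- strand), and the copy gene Amd2 carries the same letters at chr10:35711860-35711880 (- strand). Capitals mark the start and stop codons.
Amd1: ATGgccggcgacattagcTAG
Amd2: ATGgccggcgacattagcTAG
Reads that lie within such identical stretches cannot be assigned to the gene or its copy by sequence. The count tables have rows of their own for Amd2, Oaz1-ps, Oaz2-ps, Sms-ps and the pseudogenes Amd-ps3, Amd-ps4 and Amd-ps7. In GENCODE M21 transcripts, Amd2 was 99.6% identical to Amd1 over 3202 aligned positions, with an identical run of 930 bases. Over 1005 aligned positions, Amd-ps3 was 99.9% and Amd-ps4 99.5% identical to Amd1. Oaz1-ps was 99.7% identical to Oaz1 over 685 positions, Sms-ps 100% identical to Sms over 1101 and Oaz2-ps 93.8% identical to Oaz2 over 564. The sources used here do not say how a read matching both a gene and its copy was counted.

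By level per exon length, the transcripts covered a wide range in both groups. Oaz1 stood far above the others, with a mean of 1256 CPM per kb of exon in KO and 1550 CPM per kb in control libraries. Srm followed with 165 CPM per kb in KO and 323 CPM per kb in control libraries. In control libraries Odc1 averaged 97.2, Sat1 68.9 and Amd1 65.6 CPM per kb, and these neighbours overlapped. Sms, Azin1 and Oaz2, at 21.9, 19.7 and 19.5 CPM per kb, also overlapped one another. The oxidase genes Paox and Smox were lowest, at 2.98 and 1.87 CPM per kb, and overlapped. The exon lengths are those of GENCODE M21 basic transcripts, which may differ from the gene models behind the counts. Copy rows are not part of these levels. In control libraries they took 28.7% to 34.1% of the summed Amd1 family and 26.0% to 32.2% of Sms with Sms-ps. The order of genes with close levels could therefore change if copies were added. Of the summed CPM of the 10 genes, Oaz1 alone took 60.0% to 62.5% in KO libraries and 57.2% to 59.8% in control libraries.

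**Figure D1:**
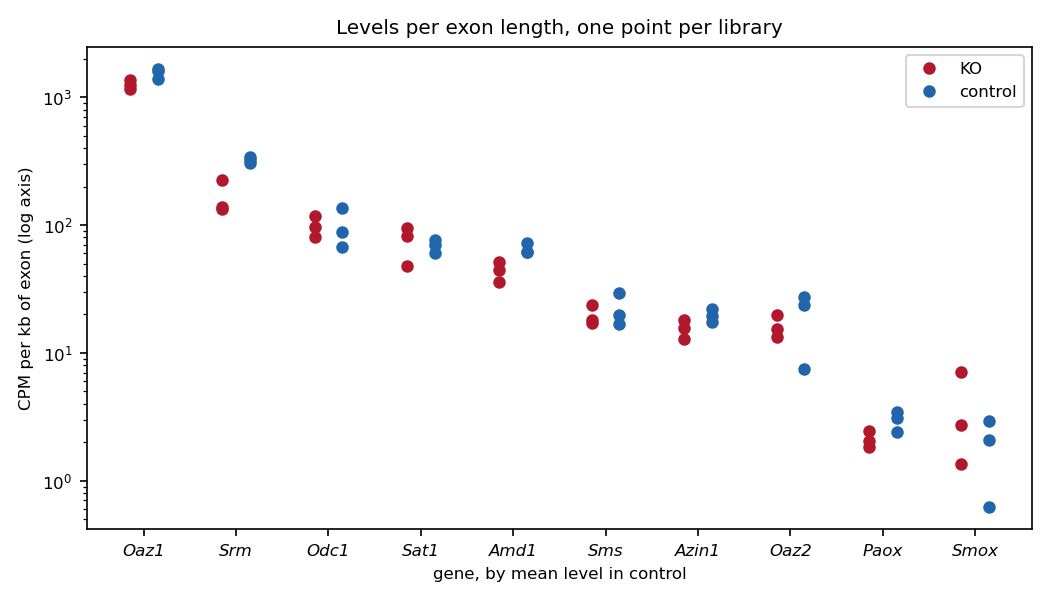
CPM per kb of exon (log axis) of each of the 10 genes, ordered by mean level in control, with 1 point per library (KO left of control within each gene). Oaz1 lies above all others at about 1256 and 1550 CPM per kb on average in KO and control, and Paox and Smox lie lowest.

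Among the synthesis genes, Srm and Amd1 were lower in every KO library than in any control library, while Odc1 and Sms overlapped between the groups. Srm had 301, 186 and 178 CPM in KO libraries and 457, 408 and 433 CPM in control libraries. Every KO library lay below every control library, and KO replicate 1 stood apart from the other KO libraries toward control. The KO mean was 51.1% of the control mean, with a log2 fold change of -0.97 (SE 0.23, n = 3 each). Without KO replicate 1, which also had the highest globin share at 2.43%, the log2 fold change of Srm was -1.27, and over the other libraries left out in turn it lay between -1.03 and -0.85. In bulk RNA, a lower level in each cell and fewer cells that carry the transcript cannot be told apart.

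Amd1 had 142, 115 and 164 CPM in KO libraries, against 233, 199 and 198 CPM in control libraries, with every KO value below every control value. The log2 fold change was -0.58 (SE 0.18), or 66.7% of the control mean, and it stayed between -0.73 and -0.46 with any 1 library left out. The nearly identical Amd2 had 46.4, 40.4 and 60.3 CPM in KO libraries and 62.1, 58.4 and 75.1 CPM in control libraries, which overlapped. The copies' rows took a 31.6% to 32.8% share of this summed family in KO libraries, against 28.7% to 34.1% in control libraries. Summed over Amd1 and its 4 copy rows, the KO libraries held 210, 171 and 240 CPM and the control libraries 326, 280 and 301 CPM. The sums did not overlap either, with a log2 fold change of -0.55 (SE 0.17). Among the single copy rows, the pseudogenes Amd-ps3 at -0.78 (SE 0.36) and Amd-ps4 at -0.90 (SE 0.47) had all KO libraries below control, as 8.76% of all genes tested did. Amd-ps7 overlapped at 0.44 (SE 0.76). Whether reads of Amd1 were counted in these rows was not tested.

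Odc1, whose enzyme is the classical rate-limiting step, had 258, 177 and 212 CPM in KO libraries and 148, 195 and 301 CPM in control libraries. The control libraries spanned more than the KO libraries, which lay inside their range. The KO mean was 216 ± 40.6 CPM and the control mean 215 ± 78.3 CPM (SD, n = 3 each), and the log2 fold change was 0.01 (SE 0.28). It was 0.33 without control replicate 3, the library with the granulocyte transcripts, and -0.20 without control replicate 1. Sms had 67.7, 63.3 and 88.5 CPM in KO and 109, 73.3 and 62.3 CPM in control libraries, with a log2 fold change of -0.16 (SE 0.26). These groups overlapped, and the sign was positive, at 0.11, without control replicate 1. Summed with Sms-ps, its log2 fold change was -0.23 (SE 0.26).

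**Figure D2:**
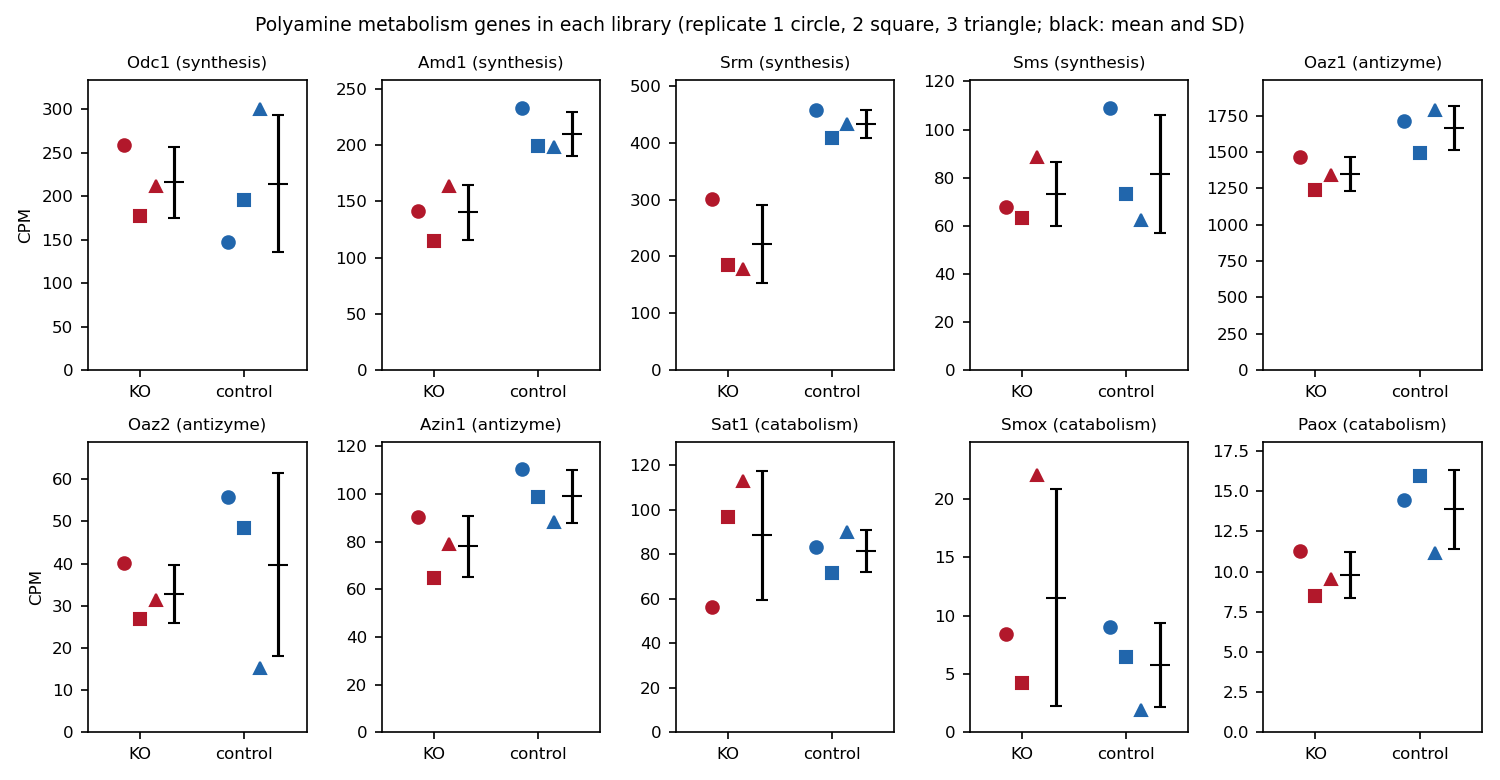
CPM of each gene in each library, KO left of control (replicates 1, 2 and 3 as circle, square and triangle; black marks the mean and SD of 3 libraries). The KO points lie below all control points in Srm, Amd1 and Oaz1, while Odc1 spans 148 to 301 CPM within control.

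The antizyme genes and the antizyme inhibitor gene had negative log2 fold changes over all libraries, from -0.34 to -0.28. Oaz1 had 1469, 1237 and 1343 CPM in KO libraries, against 1713, 1493 and 1788 CPM in control libraries. All KO values were the lower ones, though KO replicate 1 and control replicate 2 lay close together. The log2 fold change was -0.30 (SE 0.14), or 81.1% of the control mean. When Oaz1 was summed with Oaz1-ps, KO replicate 1 held 1775 CPM and control replicate 2 held 1761 CPM, so the groups overlapped, and the log2 fold change was -0.29 (SE 0.14).

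Oaz2 had 40.2, 26.8 and 31.3 CPM in KO libraries and 55.7, 48.4 and 15.2 CPM in control libraries. Control replicate 3 was lowest of all 6 libraries, and the other control libraries were above every KO library. The log2 fold change was -0.28 (SE 0.46) over all libraries, -0.67 without control replicate 3 and 0.04 without control replicate 1. Azin1 had 90.4, 64.9 and 79.2 CPM in KO libraries and 110, 98.6 and 88.2 CPM in control libraries, with a log2 fold change of -0.34 (SE 0.19). The groups overlapped only in KO replicate 1 and control replicate 3.

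The catabolic genes went different ways from one another. Sat1, the acetyltransferase, had 56.3, 96.6 and 113 CPM in KO libraries and 83.2, 71.5 and 89.9 CPM in control libraries, with a log2 fold change of 0.12 (SE 0.27). KO replicate 1 was lowest and the other KO libraries were highest of all 6, so the sign depended on the libraries, and it was -0.11 without KO replicate 3. Smox had 8.45, 4.20 and 22.0 CPM in KO libraries and 9.01, 6.45 and 1.92 CPM in control libraries. Its positive log2 fold change of 0.996 (SE 0.78) came with a wide overlap, and without KO replicate 3 it was 0.11. Paox had 11.3, 8.47 and 9.54 CPM in KO libraries, against 14.4, 16.0 and 11.2 CPM in control libraries. The groups overlapped only through KO replicate 1 and control replicate 3, and the log2 fold change was -0.50 (SE 0.33).

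**Figure D3:**
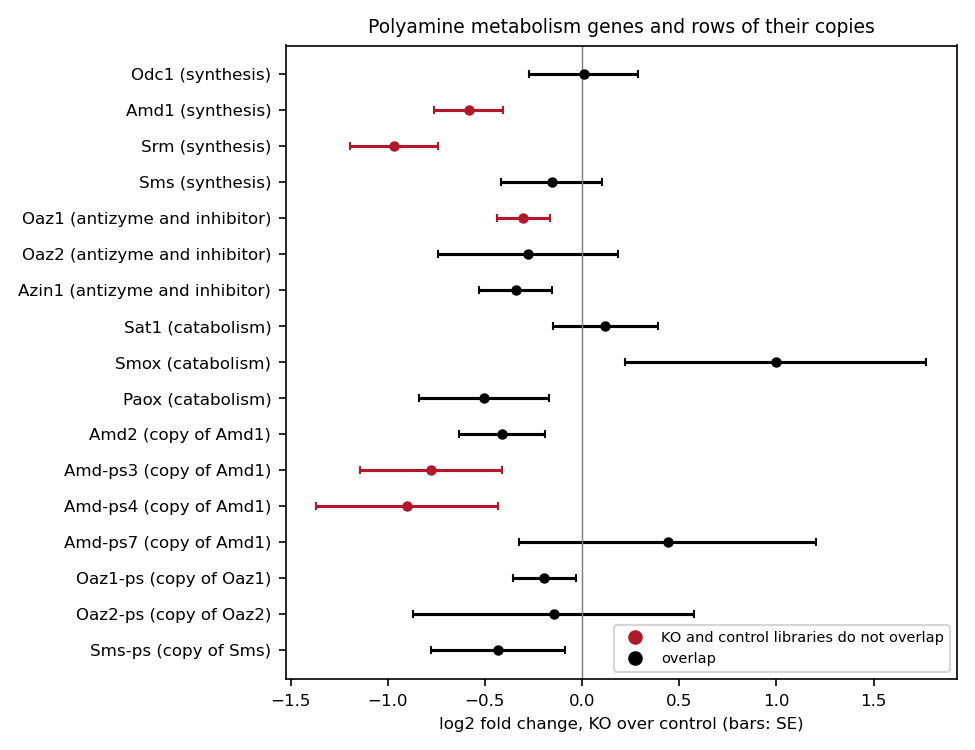
Log2 fold change of KO over control (points) with its SE (bars) for the 10 genes, by role, and for the rows of their copies, in red where the 3 KO and 3 control libraries do not overlap. Srm is lowest at -0.97, Odc1 sits at 0.01 and Smox is highest at 0.996 with the widest bar among the 10 genes.

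By role, the median log2 fold change was -0.37 over the 4 synthesis genes, -0.30 over the 3 antizyme and inhibitor genes and 0.12 over the 3 catabolic genes. Over all 10 genes it was -0.29, and over all 16022 genes tested it was 0.03. Of the 10 genes, 7 had a negative value, where 47.8% of all genes tested did. In 3 of 10, Srm, Amd1 and Oaz1, all KO libraries lay below all control libraries, as they did in 8.76% of all genes tested, and the reverse was seen in 0 of 10, where it held for 10.7% of all genes. In edgeR's quasi-likelihood test 0 of the 10 genes, and 0% of all genes, passed an adjusted p of 0.05 in either direction. At an unadjusted p under 0.05, 2 of the 10, Srm and Amd1, were lower, where 5.79% of all genes were, and 0 were higher, where 5.47% of all genes were. DESeq2 called Srm as lower among the 10 at its adjusted threshold, where it called 2.05% of all genes lower and 1.2% higher, and limma-voom called 0. Since the genes were proposed with this contrast in view, these counts describe them and are not read against the background.

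The libraries of a group did not share the high and low values evenly. KO replicate 1 was the highest of the KO libraries in 6 of the 10 genes, and KO replicate 2 was the lowest in 8. Control replicate 1 was the highest of the control libraries in 6 and control replicate 3 the lowest in 6. The 10 genes summed to 2444, 1979 and 2240 CPM in KO libraries, against 2933, 2610 and 2988 CPM in control libraries. The sums did not overlap, and most of each was Oaz1. Genes used as markers of other cells differed as well, and their part in these values was not tested. Whether their transcripts came from other cells or from the LT-HSCs was not tested either. KO replicate 1 held 28604 CPM of summed erythroid markers, where the other KO libraries held 11490 and 9419 CPM and control libraries 4937 to 10265 CPM. Of these 10 erythroid markers, the 4 globin genes were higher at an unadjusted p under 0.05 in edgeR and Car1 and Car2 were lower, at 43.0% and 62.5% of the control mean, and 0 passed the adjusted threshold. Sums of megakaryocyte and platelet markers, most of them Pf4, did not overlap, with 1671 to 2486 CPM in KO and 772 to 1041 CPM in control libraries. Pf4, Itga2b, Gp1bb and Vwf had all KO libraries above control, as 10.7% of all genes tested did, while Gp9 and Ppbp overlapped. Sums of T and NK markers, nearly all Nkg7, did not overlap either, with 247 to 255 CPM in KO and 131 to 209 CPM in control libraries.

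**Figure D4:**
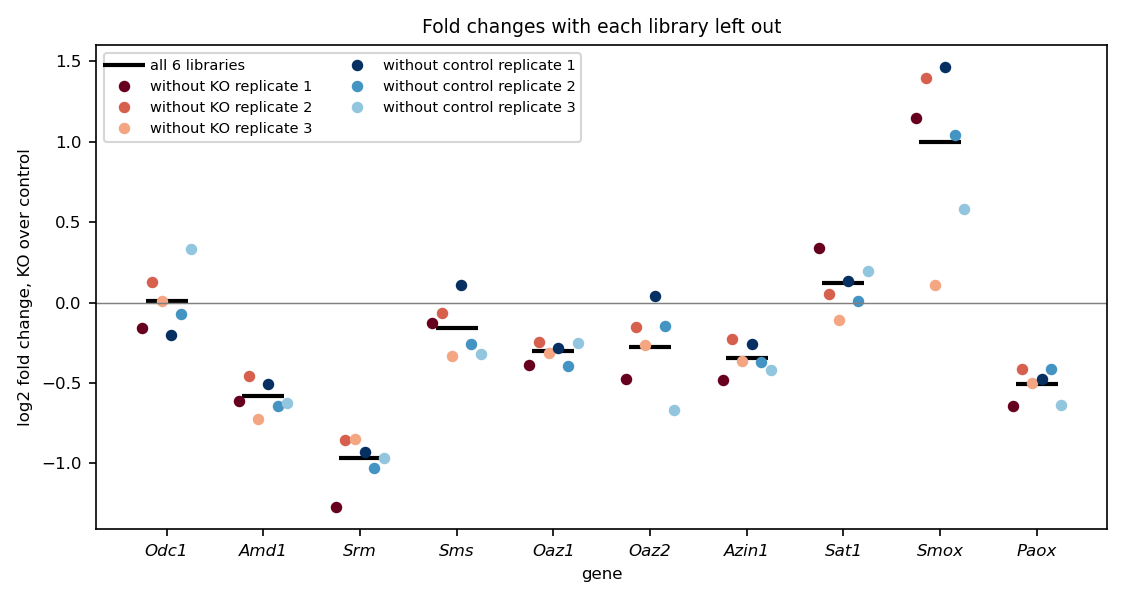
Log2 fold change of KO over control for each gene with all 6 libraries (black bar) and with each library left out (points). Srm, Amd1, Oaz1, Azin1 and Paox stay negative and Smox stays positive in every case, while Odc1, Sms, Oaz2 and Sat1 cross 0.

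The balance between opposing roles was followed as a log2 ratio of CPM within each library, in which gene length cancels when libraries are compared. The ratio of Odc1 to Oaz1, the enzyme and its main antizyme, was -2.51, -2.80 and -2.67 in KO libraries and -3.54, -2.93 and -2.57 in control libraries. The groups overlapped, with means of -2.66 ± 0.15 in KO and -3.01 ± 0.49 in control (SD, n = 3 each). The ratio of Srm to Sat1, which make and acetylate spermidine, was 2.41, 0.94 and 0.66 in KO libraries and 2.46, 2.51 and 2.27 in control libraries. KO replicate 1 lay within the control range, and KO replicates 2 and 3 lay below all control libraries. The mean of the Srm to Sat1 ratio was 1.34 ± 0.94 in KO and 2.41 ± 0.13 in control (SD, n = 3 each).

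Upstream letters were looked at in the 8 genes with a promoter entry in the RefSeq table of GRCm38.p6, which has none for Srm and Azin1. The windows of Amd1, Oaz1 and Odc1 are shown over the 250 bases before the annotated start, 5′ to 3′. GC boxes (GGGCGG, either strand) and E-boxes (CACGTG, the letters bound by Myc) are in capitals. Whether these genes share regulation was not tested. Amd1 lies at chr10:40302189-40302438 (- strand), Oaz1 at chr10:80826406-80826655 (+ strand) and Odc1 at chr12:17544623-17544872 (+ strand).
Amd1: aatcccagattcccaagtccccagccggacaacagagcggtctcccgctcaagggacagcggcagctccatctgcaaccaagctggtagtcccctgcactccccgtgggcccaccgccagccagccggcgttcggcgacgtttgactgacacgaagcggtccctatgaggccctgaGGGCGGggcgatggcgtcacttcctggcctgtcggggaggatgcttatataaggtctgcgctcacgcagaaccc
Oaz1: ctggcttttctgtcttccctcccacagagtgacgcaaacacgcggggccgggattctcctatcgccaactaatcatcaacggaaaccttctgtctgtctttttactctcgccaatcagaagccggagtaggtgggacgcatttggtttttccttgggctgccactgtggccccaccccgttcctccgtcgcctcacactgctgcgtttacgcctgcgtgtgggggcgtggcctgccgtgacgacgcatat
Odc1: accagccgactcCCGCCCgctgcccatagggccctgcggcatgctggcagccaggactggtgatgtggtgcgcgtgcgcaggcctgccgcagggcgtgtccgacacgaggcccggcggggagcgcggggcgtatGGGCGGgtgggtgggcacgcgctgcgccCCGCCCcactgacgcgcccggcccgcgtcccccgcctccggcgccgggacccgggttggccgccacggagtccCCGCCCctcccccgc
Odc1 held 4 GC boxes, Amd1 held 1 and Oaz1 held 0, and these windows had 0 E-boxes. Among the 10 windows of the 8 genes, 1 held an E-box, at the first of the annotated starts of Sms, and 8 held a GC box, all but that window and the one of Oaz1. The 2 windows of Paox overlap. Of 32851 RefSeq windows of this length, 6.02% held an E-box and 32.7% a GC box. A match is a description of letters only, and neither motif was looked for outside these windows.

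Around the pathway, 4 of 6 tested genes listed under precursor supply and 5 of 5 listed under methionine salvage had negative log2 fold changes. Positive ones were seen in 3 of 5 tested transporter genes. Hypusine genes and regulators each had 2 negative and 2 positive values, and further catabolism and antizyme genes 1 of each. Of all genes tested, 47.8% had a negative value. Of 34 such genes, 26 were tested, and 0 passed an adjusted p of 0.05 in edgeR. At an unadjusted p under 0.05, 5 were lower and 1 was higher, against 5.79% and 5.47% of all genes tested. DESeq2 called 2 of them, Mtap and Oat, and limma-voom called 0. The median log2 fold change over the 26 was -0.33, against 0.03 over all genes tested, with 16 negative and 10 positive. The KO libraries lay below all control libraries in 6 and above in 3, where 8.76% and 10.7% of all genes did. This list was also chosen with earlier results of these data known, so its counts are a description and are not read against the background.

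Methionine salvage recovers methionine from methylthioadenosine, the by-product of Srm and Sms, and all 5 of its genes had negative values. Mtap, the phosphorylase that starts it, had 71.6, 76.2 and 90.4 CPM in KO libraries and 163, 115 and 121 CPM in control libraries. Each KO library was lower, and the log2 fold change was -0.75 (SE 0.20, edgeR adjusted p = 0.270). Mri1, the next enzyme, had a log2 fold change of -0.57 (SE 0.22, edgeR adjusted p = 0.398) and Adi1, a later dioxygenase, -0.39 (SE 0.17, edgeR adjusted p = 0.444), both without overlap. Enoph1 at -0.38 and Apip at -0.22 overlapped between the groups. Apip, Arg1 and Arg2 are named outside the rule for named genes, after their values were seen. No gene of this branch passed the adjusted threshold in edgeR.

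Oat, the ornithine aminotransferase of mitochondria, was listed under precursor supply, but whether its enzyme supplied or used ornithine in these cells was not measured. Oat had 178, 102 and 125 CPM in KO libraries, against 286, 234 and 207 CPM in control libraries. Each KO library was below the lowest control library, with a log2 fold change of -0.85 (SE 0.24, edgeR adjusted p = 0.289). Mat2a, which makes S-adenosylmethionine, had 505, 423 and 495 CPM in KO libraries and 750, 542 and 604 CPM in control libraries, again without overlap (log2 fold change -0.41, SE 0.17, edgeR adjusted p = 0.420). Its regulatory partner Mat2b overlapped at -0.36 (SE 0.23). The arginine transporter gene Slc7a1 lay the other way, with 36.6, 34.8 and 55.4 CPM in KO libraries and 2.71, 28.5 and 28.6 CPM in control libraries. The KO values were all above the control values, of which replicate 1 stood far below the others. Its log2 fold change of 1.09 (SE 0.75, edgeR adjusted p = 0.669) carries that spread. Arginase genes were close to silent: Arg1 had at most 1.35 CPM and Arg2 at most 0.737 CPM in any library.

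Spermidine is also the donor for hypusine, the modified residue of the translation factor encoded by Eif5a. Eif5a had 1803, 1522 and 1404 CPM in KO libraries and 2322, 2029 and 1844 CPM in control libraries. KO values were below all control values, with a log2 fold change of -0.39 (SE 0.15, edgeR adjusted p = 0.406). Dhps, the enzyme that transfers the spermidine part, overlapped at -0.45 (SE 0.26). Among transporters, Slc22a3, an organic cation transporter, had 42.0, 25.9 and 37.2 CPM in KO libraries and 25.4, 16.9 and 18.3 CPM in control libraries, without overlap (log2 fold change 0.80, SE 0.30, edgeR adjusted p = 0.382). Atp13a2, which exports polyamines from lysosomes, overlapped at 0.50 (SE 0.26). Myc, a transcription factor known to activate Odc1 in many cells, had 198, 215 and 233 CPM in KO libraries and 334, 318 and 221 CPM in control libraries. These overlapped through control replicate 3, with a log2 fold change of -0.43 (SE 0.19, edgeR adjusted p = 0.453).

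**Figure D5:**
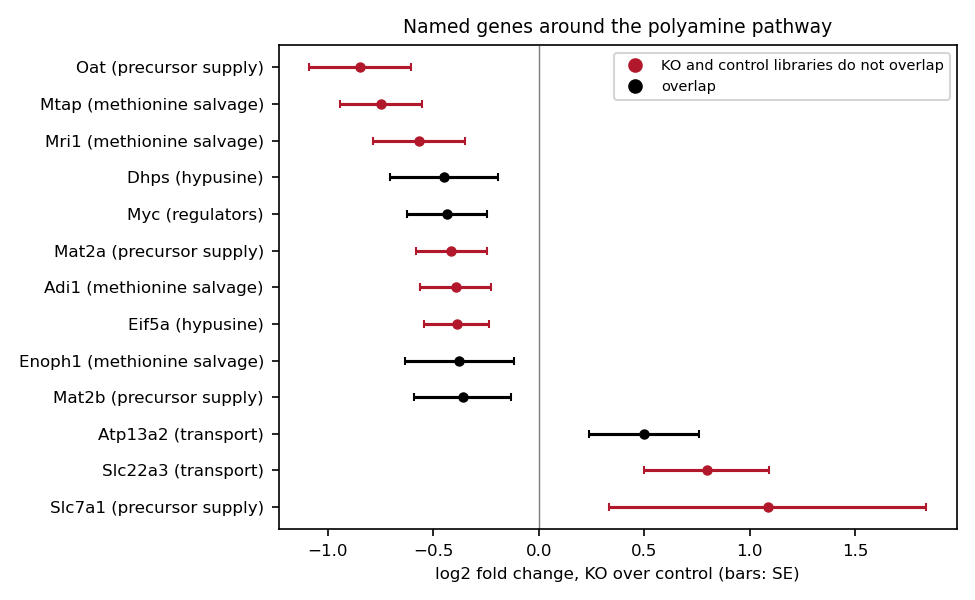
Log2 fold change of KO over control (points) with its SE (bars) for the named genes around the pathway, in red where the KO and control libraries do not overlap. Oat and Mtap are lowest at -0.85 and -0.75, and Slc7a1 is highest at 1.09 with the widest bar.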

How the data were processed

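Total RNA of sorted cells was extracted with TRIZOL and made into TruSeq libraries, per the labels' protocols. Each library has a deposited table of raw counts, with 47561 gene rows of which 2046 carry assembler identifiers. From the submitters' processing notes come the build mm10 and the tools HISAT2 2.1 and featureCounts 1.6.4, beside bcl2fastq 2.19, cutadapt 1.16.5 and DESeq2 2.11.40.6, with no role or setting. Whether strand was used in counting is not stated in those notes.

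Counts were filtered by filterByExpr, scaled by TMM and tested with edgeR 4.0.16 (robust quasi-likelihood, R 4.3.3), with Benjamini-Hochberg adjustment over all 16022 rows. The SE is the absolute log2 fold change divided by the square root of F. Ratios used a prior count of 2. The alternatives were DESeq2 1.42.0, limma-voom 3.58.1, DESeq2 size factors, no filter, a filter of 5 CPM in 3 libraries, the replicate number as a block and each library left out. No libraries agreed within sampling noise (chi-square per gene at least 132). The procedure was tested on simulated data, where it recovered 6 of 50 genes changed 2-fold, 33 of 50 changed 4-fold and 46 of 50 changed 16-fold. Most changes of 2-fold were thus missed there, and 9 unchanged genes were called.

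The members and lists were chosen with earlier results of these data known. Related genes were named by the 12 smallest unadjusted p-values or, at 5 CPM or more, by groups that do not overlap. Rows named Amd-ps were added after values were seen.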

Additional observations from a re-analysis of the deposited data

How the results depend on the processing

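The median log2 fold change of the 10 genes stayed negative under all 14 alternatives, between -0.43 without KO replicate 1 and -0.19 without KO replicate 2. Those of Srm, Amd1, Oaz1, Azin1 and Paox stayed negative and that of Smox positive under all 14, while those of Odc1, Sms, Oaz2 and Sat1 had the other sign in 6, 1, 1 and 1 of them. The value of Smox depended most on 1 library, with 0.11 to 1.46 over the libraries left out. The number of genes called was 0 in edgeR, 521 with DESeq2 and 1 with a filter of 5 CPM in 3 libraries, and 0 to 1 over the libraries left out. At an unadjusted p under 0.05 the higher genes numbered 877, or 571 to 1320 over the libraries left out, and the lower genes 928, or 601 to 1324, lowest without KO replicate 3 and highest without control replicate 3; the lower genes were 618 without control replicate 1. Of the related genes, 0 were called in edgeR and 2 with DESeq2. At an unadjusted p under 0.05, 0 to 1 related genes were higher and 2 to 7 lower over the libraries left out, with 2 lower without KO replicate 2 or 3 and 3 without control replicate 1, where the full set gave 1 higher and 5 lower. The higher one, Slc22a3, was lost without KO replicate 1 or 3 and without control replicate 2 or 3. Without KO replicate 1, the 1 higher gene was Atp13a2 instead. The Piezo1 log2 fold change was -1.15, and -1.53 to -0.73 over the libraries left out. The difference of the Odc1 to Oaz1 log2 ratio was 0.36, and 0.09 to 0.58 over the libraries left out, and that of Srm to Sat1 was -1.07, and -1.61 to -0.73. With the replicate number as a block, 0 genes were called and 3 related genes were lower at an unadjusted p under 0.05, and the same-numbered libraries correlated at 0.038, 0.016 and 0.033, each the highest of its libraries' correlations with the other group but too low to treat the numbers as pairs. Versions without robust estimation and with copies summed were chosen after seeing the data. The causes of these shifts were not tested. Floors of 3 counts lay between 0.0440 and 0.0539 CPM, against a lowest value of 1.92 CPM among the 10 genes (Smox in control replicate 3).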
